A study of Mus musculus with 12 samples.

Results

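The Gimap genes encode GTPases of immunity-associated proteins, small GTP-binding proteins of lymphocytes that sit on intracellular membranes such as those of lysosomes and the endoplasmic reticulum. The family was taken as the 8 rows of the gene count table with the symbols Gimap1, Gimap3, Gimap4, Gimap5, Gimap6, Gimap7, Gimap8 and Gimap9, out of 54351 genes. All 8 had reads, and all 8 were among the 20897 genes that passed the filter on low counts (edgeR's filterByExpr) and were tested. The members were named by symbol and not by their values. They were followed across 4 groups of 3 mouse libraries of polyadenylated RNA. The first group, LN3 spleen, held leukaemic T cells (T-ALL, the acute lymphoblastic leukaemia of the T lineage) from spleens of overtly sick LN3 tg mice on the C57BL/6 strain. LN3 thymus held T-ALL cells from thymuses of such mice. WT CD8 cells were spleen T cells of tumour-free wild-type C57BL/6 mice, enriched by negative selection to a stated CD8 purity of 85 to 95%, and WT thymocytes were unselected thymus cells of tumour-free wild-type mice. Organs were dissociated mechanically, and only the WT spleen cells were enriched afterwards. Which genes the LN3 transgene carries, the promoter that drives it and the ages of the mice were not given in the sources used here. The leukaemias are numbered 1 to 3 in both organs, but the labels do not say that a number marks the same mouse. Whether the libraries of a group came from separate animals is not stated either, so the p-values reflect the spread between libraries, part of which may be technical.

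Gimap proteins are known mainly from lymphocyte survival. Loss of Gimap5 in mice and rats leaves few peripheral T cells, mouse Gimap3 acts with Gimap5 in that survival, and the human counterpart of Gimap3 is a pseudogene. Gimap1 is needed in mice to keep mature T and B cells, and Gimap4 has been linked to the timing of T-cell death. Gimap6 binds an Atg8-type protein of autophagy, and human GIMAP7 can stimulate the GTPase activity of another member. Gimap transcripts are known to be low in immature thymocytes and higher in mature, resting T cells.

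Counts per library totalled 12694571 to 42483898, and 3 counts, the floor used for a library, corresponded to 0.0657 to 0.262 CPM (the usual depth-scaled count, here with edgeR's TMM factors). No member lay near that floor, since the lowest value was 3.32 CPM, of Gimap7 in LN3 thymus 1. A set of 4 transcripts that hold ribosomal RNA sequence or its relatives (CT010467.1, Mir6236, Lars2 and Gm26917) took 7.21 to 15.4% of counts in all LN3 spleen libraries, LN3 thymus 2 and 3 and WT thymocyte 3. The share was 0.868 to 2.67% in LN3 thymus 1, all WT CD8 libraries and WT thymocytes 1 and 2. In the spleen comparison this share and the genotype cannot be told apart, so the part of the share in those results could not be tested. Levels of bulk RNA do not tell fewer cells of a type from less RNA per cell.

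The members lie in 1 cluster of 123.6 kb on mouse chromosome 6, from base 48647234 to base 48770851 on GRCm38 (GENCODE M21 gene models). Their order is Gimap8, Gimap9, Gimap4, Gimap6, Gimap7, Gimap1, Gimap5 and Gimap3, with 6 members on the plus strand and 2, Gimap6 and Gimap3, on the minus strand. Gimap3 (ENSMUSG00000039264.9) spans bases 48764464 to 48770851, and Gimap5 (ENSMUSG00000043505.8) spans bases 48746197 to 48754210. Gimap9 (ENSMUSG00000051124.6) spans bases 48676129 to 48679114. Shared sequence makes some estimates less certain, because the authors' counter assigns read pairs to transcripts by the short words they contain. Of all words of 31 bases in a member's transcripts, 61.77% were unique to the gene for Gimap1, 85.0% for Gimap3 and 89.66% for Gimap5. The share was 97.8 to 100% for the other 5 members. Gimap1 shared 33.87% of its words with Gimap1os, a transcript on the opposite strand, and whether the counting used the strand is not given in the sources used here. Gimap3 shared 13.15% of its words with Gimap5, and Gimap5 shared 8.02% with Gimap3.

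The stretches of 250 bases before the RefSeq start (GRCm38.p6, read 5′ to 3′ on the gene's strand) are shown for Gimap3, the member with the largest differences, for Gimap5, its known partner in T-cell survival, and for Gimap9, the member that did not move with the others. Capitals mark core motifs of T-cell regulators found on either strand. The Gimap3 stretch is chr6:48770852-48771101 on the minus strand, the Gimap5 stretch chr6:48745947-48746196 on the plus strand and the Gimap9 stretch chr6:48675885-48676134 on the plus strand.
Gimap3: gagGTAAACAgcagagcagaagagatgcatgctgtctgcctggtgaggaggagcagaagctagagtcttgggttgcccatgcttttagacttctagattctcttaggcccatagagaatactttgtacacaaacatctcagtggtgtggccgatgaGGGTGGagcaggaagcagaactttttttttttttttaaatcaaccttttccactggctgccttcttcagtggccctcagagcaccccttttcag
Gimap5: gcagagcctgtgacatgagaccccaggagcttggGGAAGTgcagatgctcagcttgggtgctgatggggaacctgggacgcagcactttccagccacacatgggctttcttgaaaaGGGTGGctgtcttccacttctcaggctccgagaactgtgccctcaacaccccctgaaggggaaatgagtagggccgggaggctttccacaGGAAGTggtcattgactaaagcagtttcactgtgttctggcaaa
Gimap9: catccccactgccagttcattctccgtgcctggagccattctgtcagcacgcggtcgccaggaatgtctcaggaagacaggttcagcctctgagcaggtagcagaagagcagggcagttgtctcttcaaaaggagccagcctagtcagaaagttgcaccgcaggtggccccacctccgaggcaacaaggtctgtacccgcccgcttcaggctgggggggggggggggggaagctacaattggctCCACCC
All 8 members matched a RefSeq entry, with 9 stretches in all because Gimap8 has more than 1 start, and 6 motifs were searched on both strands. The FOXO core GTAAACA, a word bound by the quiescence factor Foxo1, was found before Gimap3 and before no other member, against 3.2% of 32851 such stretches of all genes. The KLF core CCACCC, bound by factors such as Klf2, was found before Gimap3, Gimap4, Gimap5, Gimap8 and Gimap9, against 28.1% of all stretches. Before Gimap3 and Gimap5 it reads GGGTGG, from the other strand. In Gimap9 it is the last 6 bases, which the GENCODE model already counts as transcript. In Gimap8 it lies only in the stretch that begins at base 48647111, at a place past the GENCODE start of the gene (base 48647234). The other Gimap8 stretch, from base 48646984, held none of the motifs. The RUNX core TGTGGT was found before Gimap1, Gimap4 and Gimap7 (14.0% of all stretches) and the ETS core GGAAGT before Gimap5 and Gimap6 (19.7%). No stretch of a member held TGGGAA, a core shared by RBPJ and Ikaros (21.6% of all stretches), or the E-box CACGTG (6.0%). These letters are descriptions of the sequence and say nothing of binding.

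The first question was how splenic T-ALL cells differed from mature spleen T cells of tumour-free mice. Splenic leukaemia cells had much lower levels of nearly the whole family: 7 of 8 members were lower in LN3 spleen than in WT CD8 cells, by 2.31-fold to 20.0-fold, and Gimap9 was not. Gimap3 led, with a 20.0-fold lower level, followed by Gimap8 (6.97-fold) and Gimap4 (4.86-fold). Summed over the members, the level was 471 ± 105 CPM in LN3 spleen and 2263 ± 454 CPM in WT CD8 cells (SD, n = 3 each). Among all genes tested, 13.0% were called lower in this comparison (edgeR's quasi-likelihood test, Benjamini-Hochberg adjusted p below 0.05 over all genes tested). The median log2 difference of the members was −2.06, against −0.11 over all genes. The WT CD8 cells are mature, whereas LN3 spleen also held RNA of immature cells. Of 8 genes of double-positive (immature) thymocytes, 5 were called higher in LN3 spleen, 0 lower and 3 not called. Leukaemia and cell maturity therefore cannot be told apart in this comparison. In WT thymocytes, which are mostly immature, the family sum was 740 ± 87.5 CPM.

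**Figure D1:**
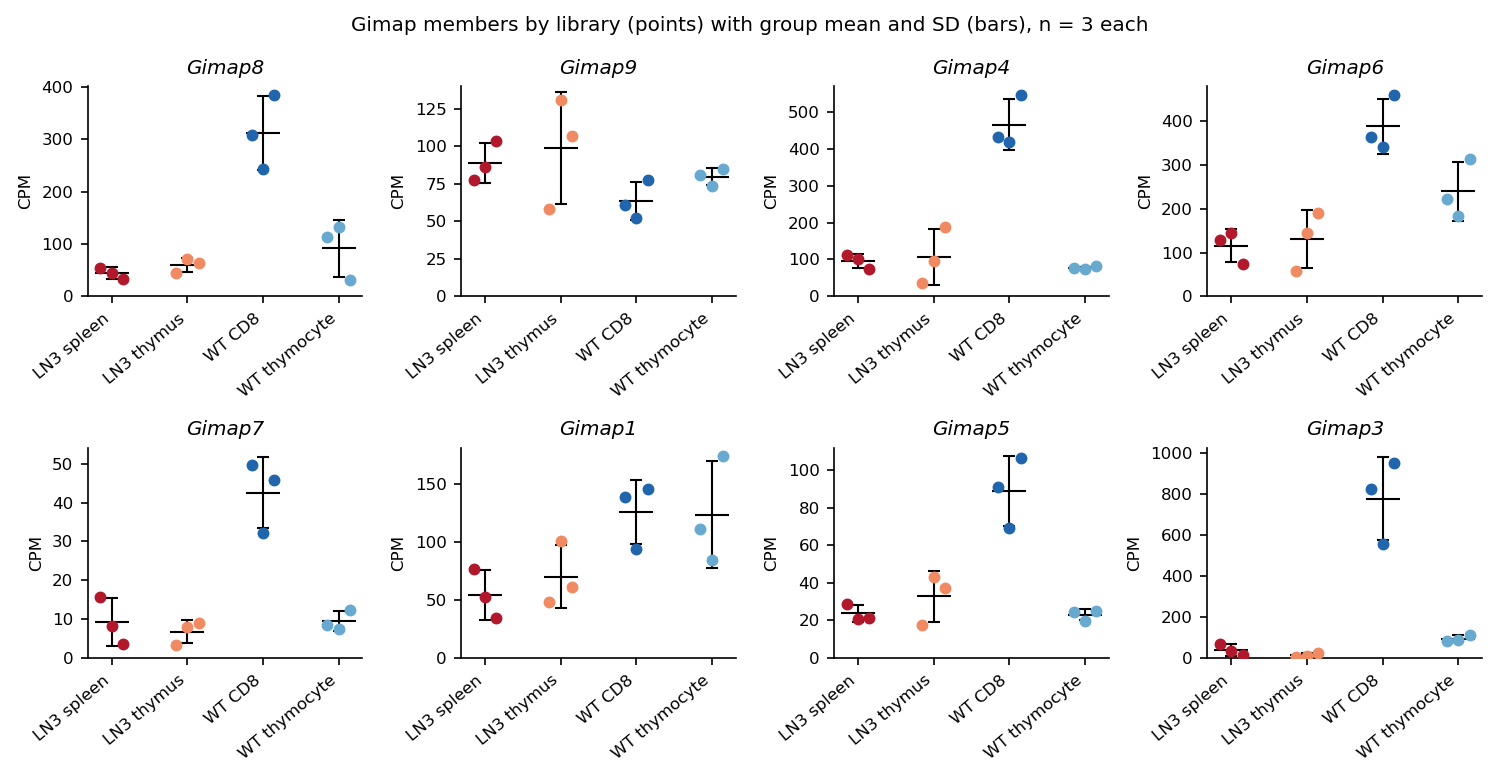
Level of each Gimap member in CPM (linear axis from 0) in the 3 libraries of each group (points), with the group mean and SD (bars), in chromosome order of the genes. For Gimap3 the 3 WT CD8 libraries sit between 557 and 953 CPM, and the 3 LN3 spleen libraries between 12.8 and 68.3 CPM.

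Gimap3 had 68.3, 35.8 and 12.8 CPM in LN3 spleen 1 to 3, against 823, 557 and 953 CPM in WT CD8 cells 1 to 3. The lowest WT CD8 library held 8.15 times the level of the highest LN3 spleen library. Its log2 difference was −4.32 (SE 0.64, adjusted p = 0.000445). Gimap5, whose loss leaves few peripheral T cells in mice, had 28.9, 20.8 and 21.4 CPM in LN3 spleen and 91.2, 69.2 and 106 CPM in WT CD8 cells. That was 3.76-fold lower (log2 difference −1.91, SE 0.33, adjusted p = 0.00112), without overlap of the groups. Gimap4, the member linked to T-cell death, had 111, 102 and 73.7 CPM in LN3 spleen and 431, 418 and 544 CPM in WT CD8 cells (log2 difference −2.28, SE 0.44, adjusted p = 0.00235). The 3 libraries of LN3 spleen lay close together for Gimap4, with the highest 1.51 times the lowest, whereas for Gimap3 the highest was 5.35 times the lowest.

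Gimap8, a large member with several GTPase domains, had 55.1, 45.3 and 33.8 CPM in LN3 spleen and 308, 244 and 384 CPM in WT CD8 cells (log2 difference −2.80, SE 0.45, adjusted p = 0.000841). Gimap6, the member that binds an Atg8-type protein, had 130, 144 and 73.3 CPM in LN3 spleen and 364, 341 and 460 CPM in WT CD8 cells, a 3.35-fold lower level (adjusted p = 0.0064). Gimap7 was the least abundant member, with 15.8, 8.31 and 3.53 CPM in LN3 spleen and 49.7, 32.2 and 45.9 CPM in WT CD8 cells (4.64-fold lower, adjusted p = 0.00641). In each of these 3 genes every LN3 spleen library was below every WT CD8 library. Gimap1, needed for mature T and B cells, had 76.7, 52.4 and 34.1 CPM in LN3 spleen and 138, 94.1 and 145 CPM in WT CD8 cells. Its difference was the smallest of the 7 (log2 difference −1.21, SE 0.38, adjusted p = 0.0278). It was not called without LN3 spleen 2 or 3 or WT CD8 1 or 3 (adjusted p = 0.0823, 0.117, 0.0942 and 0.0817), and 38.23% of its words occur in other genes.

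Gimap9 stood apart, with 77.5, 86.1 and 104 CPM in LN3 spleen and 60.7, 52.5 and 77.5 CPM in WT CD8 cells. LN3 spleen 1 and WT CD8 3 were level, and the other LN3 spleen libraries were above all WT CD8 libraries. Its log2 difference was 0.49 (SE 0.28, adjusted p = 0.199), so that no difference was called. The 7 lower members had no overlap between the groups, in a comparison where 30.8% of all genes tested were lower in every LN3 spleen library. A fit with the high or low share of ribosomal RNA-like transcripts as a term was added after seeing the data. All LN3 spleen libraries had a high share and all WT CD8 libraries a low one. The term is therefore set by the thymic libraries alone, and the fit cannot separate share from genotype in the spleen. In that fit 6 of the 7 members were called lower. The exception was Gimap8 (log2 difference −2.10, adjusted p = 0.0692), and Gimap9 then had −0.10.

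The second question concerned thymic T-ALL cells and their tumour-free counterpart, WT thymocytes. Here Gimap3 alone was called, 7.44-fold lower in LN3 thymus, and no member was called higher. Gimap3 had 5.12, 9.93 and 23.0 CPM in LN3 thymus 1 to 3, against 81.3, 89.1 and 114 CPM in WT thymocytes 1 to 3. The lowest WT thymocyte library held 3.54 times the level of the highest LN3 thymus library. The log2 difference was −2.89 (SE 0.60, adjusted p = 0.00844), in a comparison where 5.21% of all genes tested were called lower and 6.06% higher. The call remained with each library left out in turn (highest adjusted p = 0.0398).

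The other 7 members overlapped between LN3 thymus and WT thymocytes, in a comparison where 12.8% of all genes tested were lower in every LN3 thymus library. At an unadjusted p below 0.05 there were 3 members, Gimap3, Gimap1 and Gimap6, against 5172 of all 20897 genes tested. DESeq2 and limma each called 1 member lower and 0 higher. Gimap1 had 48.3, 101 and 61.4 CPM in LN3 thymus and 111, 84.4 and 174 CPM in WT thymocytes (log2 difference −0.81, SE 0.37, adjusted p = 0.197). Gimap6 had 58.5, 144 and 190 CPM in LN3 thymus and 223, 183 and 314 CPM in WT thymocytes (log2 difference −0.88, SE 0.39, adjusted p = 0.189). Only LN3 thymus 3 reached into the range of WT thymocytes for Gimap6. Gimap7 had 3.32, 8.02 and 8.93 CPM in LN3 thymus and 8.58, 7.36 and 12.3 CPM in WT thymocytes (log2 difference −0.48, adjusted p = 0.614).

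Gimap4, Gimap5 and Gimap9 had positive differences in the thymus, none of them called. Gimap4 had 37.0, 95.6 and 187 CPM in LN3 thymus and 77.1, 75.2 and 81.1 CPM in WT thymocytes (log2 difference 0.45, SE 0.42, adjusted p = 0.565). The WT thymocyte libraries were within 1.08 times of each other for Gimap4, whereas the highest LN3 thymus library was 5.06 times the lowest. Gimap5 had 17.5, 43.3 and 37.3 CPM in LN3 thymus and 24.5, 19.6 and 24.8 CPM in WT thymocytes (log2 difference 0.51, SE 0.32, adjusted p = 0.359). Gimap9 had 58.5, 131 and 107 CPM in LN3 thymus and 80.7, 73.6 and 85.0 CPM in WT thymocytes (log2 difference 0.31, SE 0.28, adjusted p = 0.556). For all 3 genes LN3 thymus 1 was below every WT thymocyte library, and LN3 thymus 2 and 3 were above every one.

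LN3 thymus 1 is also the LN3 library with the low share of ribosomal RNA-like transcripts. Differences within each share rest on few libraries: 1 LN3 thymus against 2 WT thymocytes at low share, and 2 against 1 at high share. On the log2 scale Gimap1, Gimap3, Gimap6 and Gimap7 were lower in LN3 thymus at both shares. Gimap4, Gimap5, Gimap8 and Gimap9 were lower at low share only, where LN3 thymus 1 alone sets the sign. How many of all genes did so was not counted. Gimap3 had a log2 difference of −2.91 among the libraries of high share and −4.03 among those of low share. The values were 0.72 and −1.04 for Gimap4, 0.70 and −0.32 for Gimap5, and 0.48 and −0.40 for Gimap9. Gimap8 had 45.4, 72.1 and 64.3 CPM in LN3 thymus and 113, 133 and 30.5 CPM in WT thymocytes, with WT thymocyte 3, the library of high share, far below its group. Without that library Gimap8 was called lower (log2 difference −1.01, adjusted p = 0.0344). With the share as a term, Gimap6 was called as well (log2 difference −1.35, adjusted p = 0.020), and Gimap4 had −0.12.

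**Figure D2:**
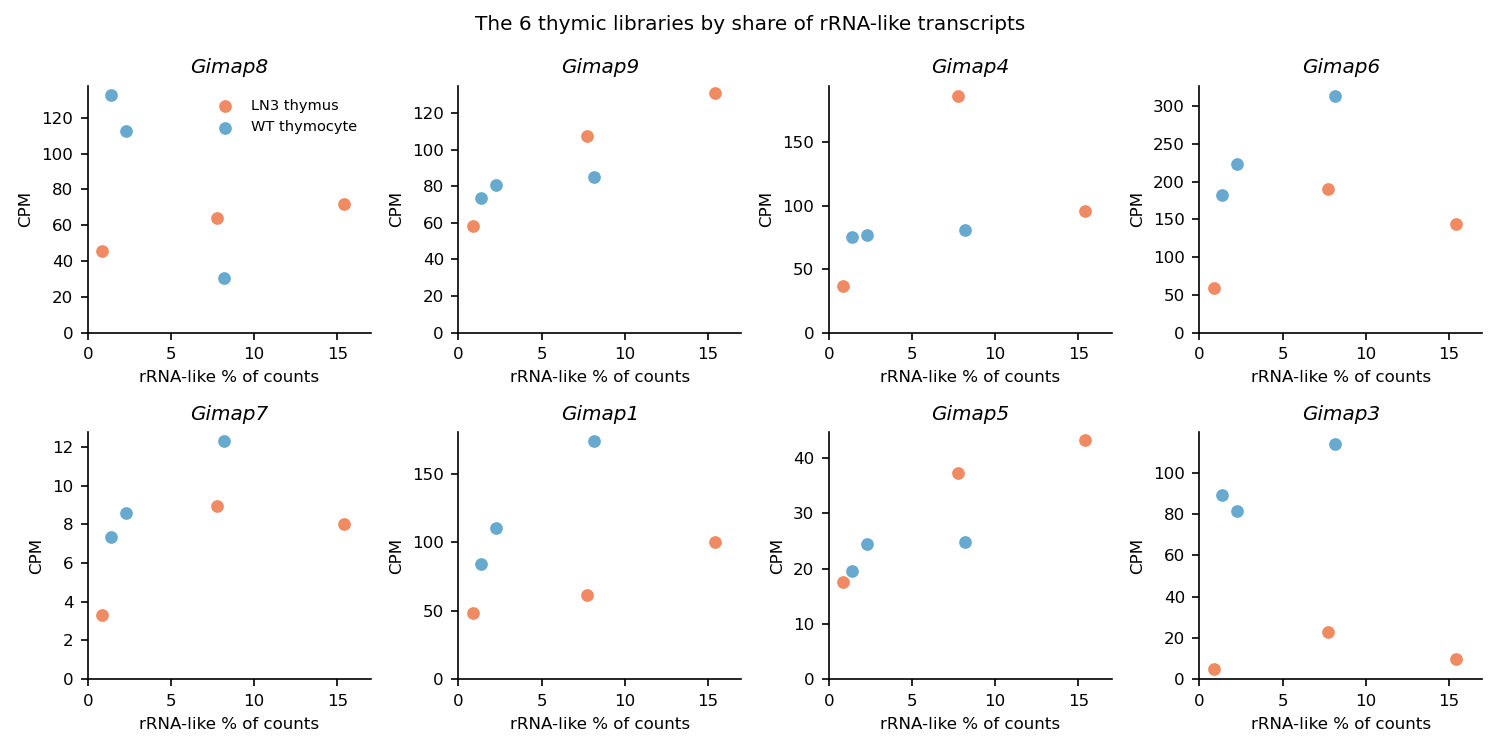
Level of each member in CPM (linear axis from 0) against the percentage of counts from the 4 ribosomal RNA-like transcripts, for the 3 LN3 thymus and the 3 WT thymocyte libraries (points). Gimap3 is lower in LN3 thymus on both sides of the gap in the share, while Gimap4, Gimap5 and Gimap9 are lowest in LN3 thymus 1, at 37.0, 17.5 and 58.5 CPM.

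Spleen and thymus leukaemia cells were then set side by side. None of the 8 members was called between LN3 spleen and LN3 thymus, in a comparison that called 0.723% of all genes tested. The groups overlapped for all 8, but the share of all genes that did so is not given here, so this count cannot be judged against it. DESeq2 and limma on the authors' values also called 0. An unadjusted p below 0.05 was found for 1 member, Gimap3, against 1817 of all 20897 genes tested. Gimap3 averaged 38.9 ± 27.9 CPM in LN3 spleen and 12.7 ± 9.26 CPM in LN3 thymus (SD, n = 3 each; log2 difference 1.61, SE 0.57, adjusted p = 0.341). The other 7 had log2 differences between −0.47 (Gimap5) and 0.44 (Gimap7), with SE of 0.28 to 0.50. The family sum was 471 ± 105 CPM in LN3 spleen and 519 ± 216 CPM in LN3 thymus.

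In tumour-free mice the members differed strongly between mature spleen T cells and thymocytes. Compared with WT thymocytes, 5 of 8 members were higher in WT CD8 cells, where 7.24% of all genes tested were called higher. Gimap3 was 8.20-fold higher (log2 difference 3.03, SE 0.60, adjusted p = 0.00472). Gimap4 was 5.97-fold higher (log2 difference 2.58, SE 0.45, adjusted p = 0.0021), and the lowest WT CD8 library held 5.16 times the highest WT thymocyte library. Gimap7 was 4.53-fold higher (adjusted p = 0.0122), Gimap5 3.88-fold (adjusted p = 0.00169) and Gimap8 3.39-fold (adjusted p = 0.0162). The call of Gimap7 was lost without WT thymocyte 1 or 2 (adjusted p = 0.0595 and 0.0525), and that of Gimap8 when only these 2 groups were fitted (adjusted p = 0.0507).

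The other 3 members showed no called difference between the WT groups. Gimap1 averaged 126 ± 27.7 CPM in WT CD8 cells and 123 ± 46.1 CPM in WT thymocytes (log2 difference 0.03, SE 0.37). Gimap6 averaged 388 ± 62.9 CPM in WT CD8 cells and 240 ± 67.2 CPM in WT thymocytes (log2 difference 0.69, SE 0.39, adjusted p = 0.273), although its groups did not overlap. Gimap9 averaged 63.6 ± 12.7 CPM in WT CD8 cells and 79.8 ± 5.75 CPM in WT thymocytes (log2 difference −0.33, SE 0.28, adjusted p = 0.503). edgeR, DESeq2 and limma called 0 members lower, and all 5 members at an unadjusted p below 0.05 were higher. Of all 20897 genes tested, 5982 were below that level, in either direction. In all, 6 members were higher in every WT CD8 library, as were 17.5% of all genes tested.

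**Figure D3:**
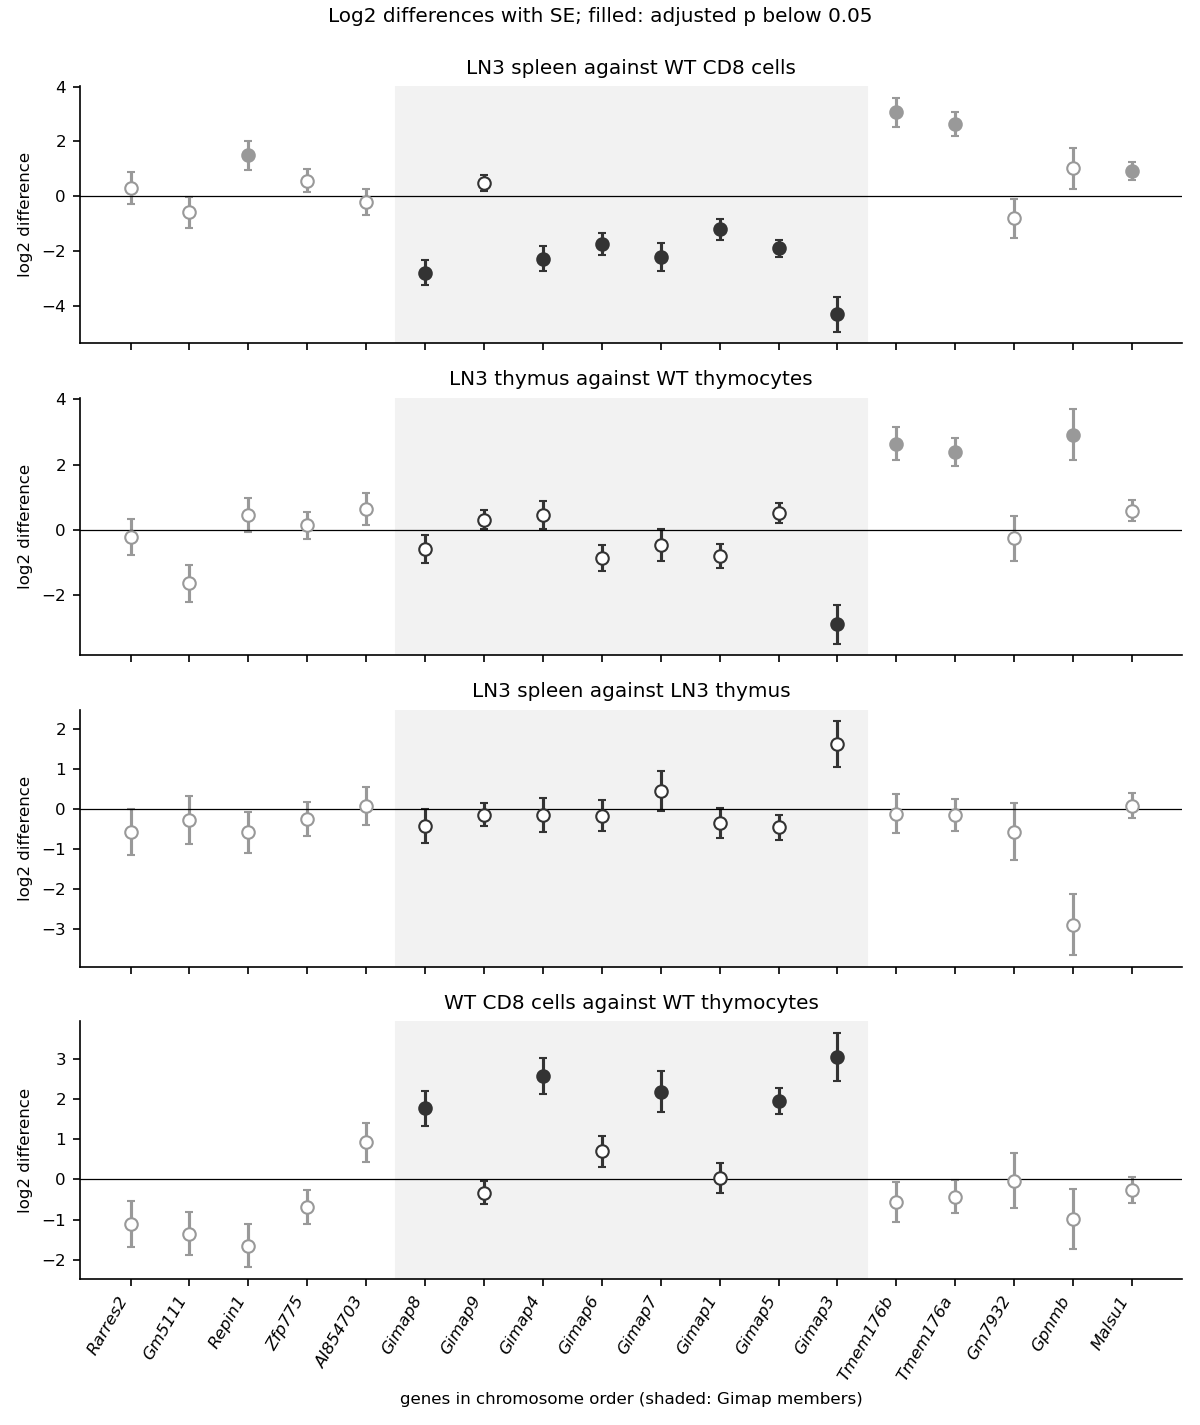
Log2 differences (points, with SE) of the 8 Gimap members (dark, shaded) and of the 5 nearest tested genes on each side (grey), in chromosome order, for 4 comparisons, with filled points at an adjusted p below 0.05. In LN3 spleen against WT CD8 cells 7 members lie between −4.32 and −1.21 and Gimap9 at 0.49, while Tmem176b and Tmem176a beside the cluster lie at 3.07 and 2.64.

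The contrast of the WT groups shares its libraries with both leukaemia comparisons, so no overlap between these comparisons is counted. By mean CPM, Gimap3, Gimap4, Gimap5, Gimap6, Gimap7 and Gimap8 were highest in WT CD8 cells and Gimap9 in LN3 thymus. Gimap1 was nearly level in WT CD8 cells and WT thymocytes (126 and 123 CPM). How many of all genes were highest in WT CD8 cells was not counted. A test of the difference itself (the interaction of organ and genotype) asked whether the gap between LN3 and WT cells differed between spleen and thymus. It was called for 2 of 8 members, Gimap5 (−2.42 on the log2 scale, SE 0.45, adjusted p = 0.00963) and Gimap4 (−2.73, SE 0.61, adjusted p = 0.0234), both lower in the spleen comparison, against 0.895% of all genes tested. Both calls were lost with limma on the authors' values (adjusted p = 0.0509 for Gimap5 and 0.0638 for Gimap4), and that of Gimap4 in 7 of the 12 fits that left out 1 library (highest adjusted p = 0.0698). Gimap8 had −2.20 (adjusted p = 0.0641), and Gimap3 had −1.43 (adjusted p = 0.38), so that a different gap in the 2 organs was not shown for Gimap3. Neither Gimap4 nor Gimap5 was called between LN3 spleen and LN3 thymus, and both were higher in WT CD8 cells than in WT thymocytes. The wild-type cells are mature CD8 cells in spleen and mostly immature cells in thymus, so organ and maturity of the WT cells cannot be told apart.

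The make-up of the family differed between groups. Gimap3 made up 7.65 ± 4.29% of the summed member CPM in LN3 spleen, 2.30 ± 0.948% in LN3 thymus, 34.1 ± 2.90% in WT CD8 cells and 12.8 ± 1.28% in WT thymocytes. Gimap9 made up 20.1 ± 8.01%, 19.6 ± 3.32%, 2.81 ± 0.12% and 10.8 ± 0.576% in the same order of groups. The ratio of Gimap3 to Gimap9 was thus 0.473 ± 0.382 in LN3 spleen, 0.126 ± 0.077 in LN3 thymus, 12.1 ± 1.49 in WT CD8 cells and 1.19 ± 0.169 in WT thymocytes. It was at most 0.881 in the LN3 libraries and at least 1.01 in the WT libraries. The ratio sets the member with the largest differences over the member that did not move with the others. Both traits come from these same libraries, so the split describes the choice of genes and is no independent result. Gimap4 had a similar share in LN3 spleen (20.3 ± 0.532%) and WT CD8 cells (20.7 ± 2.15%), with 19.0 ± 7.52% in LN3 thymus and 10.6 ± 0.814% in WT thymocytes. Gimap6 was the largest component in WT thymocytes, at 32.0 ± 5.10%.

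**Figure D4:**
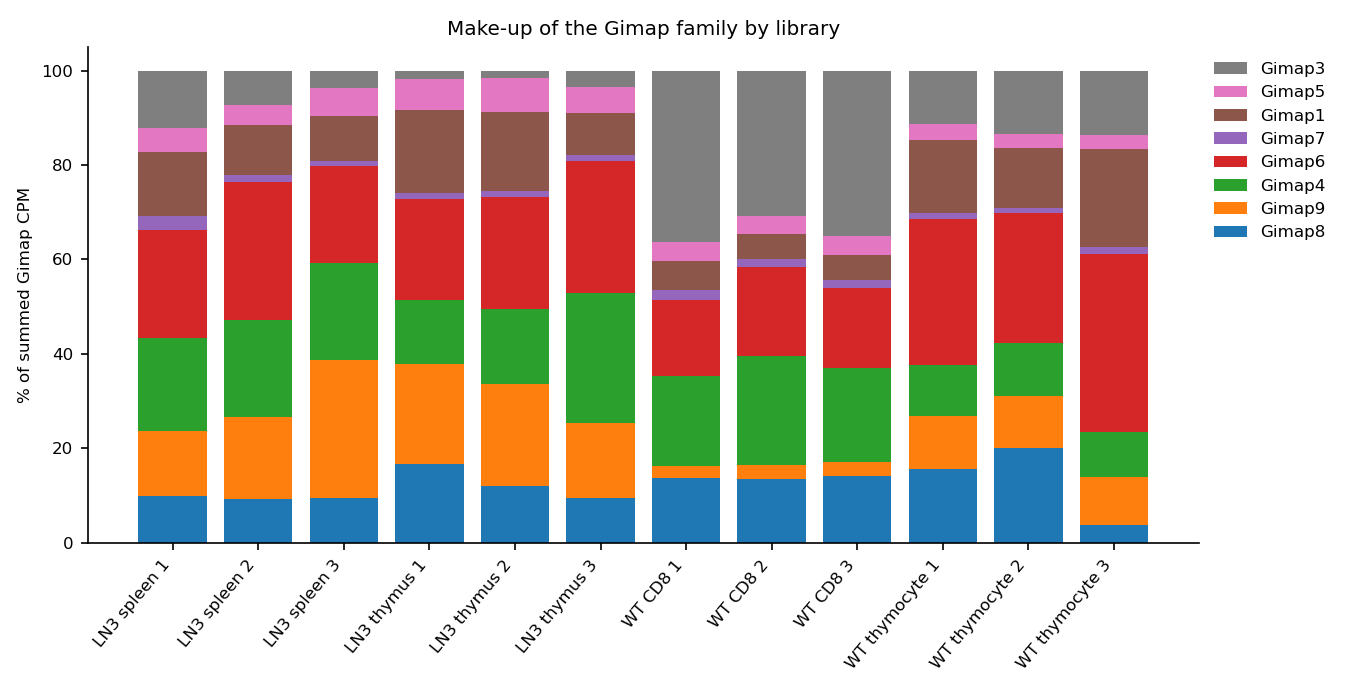
Share of each member in the summed CPM of the 8 members (stacked bars, in percent) in each of the 12 libraries. Gimap3 takes 30.8 to 36.3% in WT CD8 libraries and 1.64 to 12.1% in LN3 libraries, where Gimap9 takes 13.8 to 29.1%.

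Compared per kilobase of the longest coding transcript (1.269 to 3.179 kb), Gimap9 was the most abundant member in both leukaemia groups, at 64.4 ± 9.64 CPM per kb in LN3 spleen and 71.5 ± 26.8 CPM per kb in LN3 thymus. Gimap4 came next in both, at 53.0 ± 10.8 CPM per kb in LN3 spleen and 59.1 ± 41.9 CPM per kb in LN3 thymus, a gap within the spread. In WT CD8 cells Gimap3 came first at 362 ± 94.1 CPM per kb, followed by Gimap4 at 257 ± 38.3 CPM per kb, with ranges that overlap. In WT thymocytes Gimap1 (82.5 ± 30.9 CPM per kb) and Gimap6 (75.5 ± 21.1 CPM per kb) did not differ beyond their spread, and Gimap6 came first when the union of exons was used as length. Gimap7 was last in all 4 groups, at 5.32 to 33.5 CPM per kb.

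Genes beside the cluster were not called in the direction of the members. Of the 5 nearest tested genes on the left, 1 was called in the spleen comparison, the zinc finger gene Repin1 (higher, log2 difference 1.49, adjusted p = 0.0478). Of the 5 on the right, 3 were called higher there, and among all genes tested 17.9% were. Tmem176b and Tmem176a, a pair of membrane protein genes next to Gimap3, were higher in both leukaemia groups. Tmem176b averaged 90.7 ± 14.5 CPM in LN3 spleen against 10.8 ± 6.23 CPM in WT CD8 cells (log2 difference 3.07, adjusted p = 0.00116). It averaged 99.4 ± 43.1 CPM in LN3 thymus against 15.9 ± 8.42 CPM in WT thymocytes (log2 difference 2.65, adjusted p = 0.0062). Tmem176a had log2 differences of 2.64 in the spleen and 2.38 in the thymus (adjusted p = 0.000865 and 0.00377). Both kept their direction in the thymus libraries of high and of low share, at 2.31 and 2.23 for Tmem176b and 2.08 and 1.90 for Tmem176a. The third call on the right was Malsu1 in the spleen (log2 difference 0.92, adjusted p = 0.0424) and Gpnmb in the thymus (log2 difference 2.92, adjusted p = 0.0278). In Gpnmb the SD exceeded the mean in LN3 thymus (24.0 ± 30.6 CPM). Rarres2, Gm5111, Zfp775, AI854703 and Gm7932 were not called in these comparisons.

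Of 4 tested transcripts inside the cluster that are not members, 3 were lower in LN3 spleen, as were 13.0% of all genes tested. The readthrough Gm28053, which overlaps Gimap7, Gimap1 and Gimap5, had a log2 difference of −1.15 (adjusted p = 0.0445), Gimap1os −1.04 (adjusted p = 0.0151) and the lincRNA Gm44226 −1.55 (adjusted p = 0.00831). The lincRNA 4833403J16Rik, between Gimap5 and Gimap3, had −1.22 (adjusted p = 0.0666). Between the WT groups, Gm44226 and 4833403J16Rik were higher in WT CD8 cells (log2 differences 2.01 and 2.06, adjusted p = 0.0038 and 0.0131). Overlapping and opposite-strand transcripts may share reads with Gimap1, Gimap5 and Gimap7.

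Genes of the wider programme of resting T cells were examined as a list of 16 quiescence and naive T-cell genes. In LN3 spleen against WT CD8 cells, 10 were lower, 1 was higher and 5 were not called (median log2 difference −1.33, against −0.11 over all genes tested, of which 30.9% were called). Il7r, the receptor of the survival cytokine interleukin-7, averaged 14.1 ± 9.04 CPM in LN3 spleen and 547 ± 252 CPM in WT CD8 cells (log2 difference −5.29, adjusted p = 9.5e-05). S1pr1, the receptor by which T cells leave lymphoid organs, had a log2 difference of −4.26 (adjusted p = 0.00331). In LN3 thymus against WT thymocytes, 4 were lower and 1 was higher (11.3% of all genes tested were called), and Il7r led with −2.88 (adjusted p = 0.00543), followed by the anti-proliferative gene Tob1 at −1.69 (adjusted p = 0.00427). WT CD8 cells against WT thymocytes gave 6 higher and 2 lower (15.7% of all genes tested were called), led by Il7r at 3.45 and S1pr1 at 3.10 (adjusted p = 0.0014 and 0.0234). None of the 16 was called between the leukaemia groups, where 0 had an unadjusted p below 0.05, against 1817 of all 20897 genes tested.

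Of 9 genes for the known partners of Gimap5 and Gimap3 in survival (Bcl2 family members and the Gsk3b and Ctnnb1 pair), 3 were lower and 1 was higher in LN3 spleen (30.9% of all genes tested were called), and 3 were lower in LN3 thymus (11.3% were called). The anti-apoptotic gene Bcl2 averaged 44.5 ± 4.09 CPM in LN3 spleen and 215 ± 37.7 CPM in WT CD8 cells (log2 difference −2.27, adjusted p = 0.000119), while Ctnnb1, which encodes beta-catenin, was higher, at 516 ± 39.2 CPM in LN3 spleen and 258 ± 11.7 CPM in WT CD8 cells (adjusted p = 0.0086). In the thymus Bcl2l1, the survival gene of double-positive thymocytes, had −2.94 (adjusted p = 0.000536) and Bcl2 −0.97 (adjusted p = 0.0335). WT CD8 cells had higher Bcl2 (1.72, adjusted p = 0.00115) and lower Bcl2l1 (−3.54, adjusted p = 0.000129) than WT thymocytes. Of the 9 genes, 1 was higher, 2 were lower and 6 were not called there (15.7% of all genes tested were called). A list of 12 genes of Atg8-type proteins and other parts of autophagy, chosen because Gimap6 binds an Atg8-type protein, gave 1 call in the spleen and 1 between the WT groups, below the 30.9% and 15.7% called among all genes tested. Both calls were Ulk1, a kinase that starts autophagy, with a log2 difference of 0.74 in the spleen (adjusted p = 0.0308) and −1.19 between the WT groups (adjusted p = 0.00515). In the thymus 0 of the 12 were called and 1 had an unadjusted p below 0.05, against 5172 of all 20897 genes tested.

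**Figure D5:**
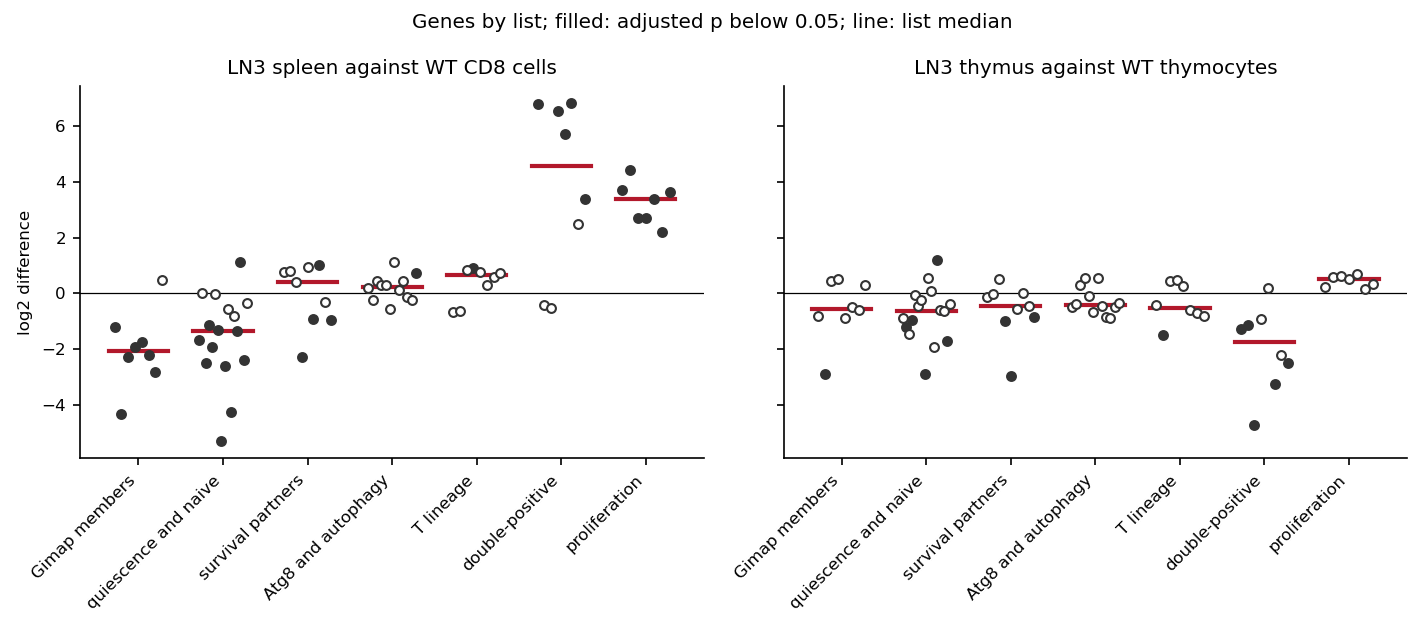
Log2 differences of the genes of 7 lists (points, filled at an adjusted p below 0.05, with the list median as a line) in LN3 spleen against WT CD8 cells and in LN3 thymus against WT thymocytes. The Gimap median lies at −2.06 in the spleen and at −0.54 in the thymus.

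Markers of cell type and of proliferation were read in the same fit. The 8 T-lineage genes summed to 3249 to 3425 CPM in LN3 spleen, 2871 to 4897 CPM in LN3 thymus, 1835 to 2810 CPM in WT CD8 cells and 3365 to 7259 CPM in WT thymocytes. Of the 8, Cd3e was higher in LN3 spleen than in WT CD8 cells (log2 difference 0.91, adjusted p = 0.0473), and Cd247 was lower in LN3 thymus than in WT thymocytes (−1.49, adjusted p = 0.0131). The T-lineage markers were present in all 4 groups. Their sum was lowest in WT CD8 cells, although Cd2 was highest there by mean (109 CPM in LN3 spleen, 97.7 CPM in LN3 thymus, 173 CPM in WT CD8 cells and 131 CPM in WT thymocytes). The 8 double-positive thymocyte genes summed to 964 to 1115, 1002 to 2160, 54.5 to 84.5 and 7223 to 9520 CPM in the same order of groups. In LN3 spleen 5 were called higher than in WT CD8 cells (17.9% of all genes tested were), led by Rag1, which cuts receptor genes (log2 difference 6.82, adjusted p = 0.000166). The other 3 were not called, with negative differences for Cd4 (−0.53) and Cd1d1 (−0.41). In LN3 thymus 5 of the 8 were called lower than in WT thymocytes and 0 higher (5.21% and 6.06% of all genes tested), with Rag1 at −3.25 (adjusted p = 0.0127). The 7 proliferation genes were all called higher in LN3 spleen than in WT CD8 cells (Ccnb1 by 4.43 on the log2 scale, adjusted p = 0.000141), as were 17.9% of all genes tested. In the thymus 0 of 7 were called, where 6.06% of all genes tested were called higher. All 7 differences there were positive (median 0.51 on the log2 scale). An unadjusted p below 0.05 was found for 0 of them, against 5172 of all 20897 genes tested. Cd8a and Cd8b1 were lower in both leukaemia groups, at −2.20 and −2.57 in the spleen and −2.64 and −2.80 in the thymus (adjusted p = 0.00192, 0.000291, 0.00181 and 0.000476).

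Markers of other cells also moved with the groups. The 5 NK cell markers summed to 5.35 to 16.1 CPM in LN3 spleen, 1.44 to 4.63 CPM in LN3 thymus, 221 to 528 CPM in WT CD8 cells and 9.46 to 19.9 CPM in WT thymocytes, and Klrk1 and Eomes among them are also expressed by CD8 T cells. Myeloid markers (6 genes) summed to 160 to 616, 45.4 to 295, 177 to 2531 and 69.3 to 183 CPM in that order of groups, and B-cell markers (6 genes) to 54.4 to 437, 19.0 to 22.1, 83.2 to 392 and 31.8 to 61.2 CPM. Erythroid markers (6 genes) summed to 1613 to 5603, 7.43 to 141, 34.9 to 608 and 13.7 to 3932 CPM, and endothelial markers (6 genes) to 115 to 123, 98.6 to 144, 134 to 137 and 119 to 212 CPM. Emcn, of the endothelial list, was at 0 in all LN3 spleen libraries, and no other marker was at 0 in all libraries of a group. Nearly all of the endothelial sum was Pecam1 (112 ± 6.45, 114 ± 24.1, 133 ± 2.76 and 147 ± 47.4 CPM in that order of groups), which T cells also express, and the other 5 genes averaged at most 2.43 CPM in any group. The library with the highest myeloid sum had the highest Gimap sum in LN3 spleen, LN3 thymus and WT thymocytes, and the lowest in WT CD8 cells. In LN3 spleen 1 to 3 the myeloid sums were 616, 160 and 208 CPM beside Gimap sums of 563, 495 and 356 CPM, and in LN3 thymus 1 to 3 they were 45.4, 147 and 295 CPM beside 274, 605 and 679 CPM. In WT CD8 cells 1 to 3 they were 1092, 2531 and 177 CPM beside 2266, 1807 and 2715 CPM, and in WT thymocytes 1 to 3 they were 116, 69.3 and 183 CPM beside 719, 665 and 836 CPM. The part of these cells in the Gimap levels was not tested.

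The genes whose profile over the 12 libraries was most like the mean of the members were sought among 20889 tested genes outside the family. The measure was the root-mean-square distance of log2 CPM, each gene centred on its own mean. The nearest were Pik3cd (distance 0.27), Stk10 (0.29), Jak3 (0.29), Pim2 (0.29), Tgfbr2 (0.29), Sp100 (0.30), Nfkbiz (0.30) and Akna (0.31), against a median distance of 1.15. None of these 8 was among the 8 nearest when the 4 group means were used in place of the 12 libraries. Pik3cd, which encodes a catalytic subunit of phosphoinositide 3-kinase in leukocytes, had 199, 206, 806 and 279 CPM in LN3 spleen, LN3 thymus, WT CD8 cells and WT thymocytes. The members themselves lay at distances of 0.35 (Gimap6) to 0.63 (Gimap1), except Gimap9 at 1.13 and Gimap3 at 1.51. Gimap3 varied most, over 7.51 log2 units from its lowest to its highest library, and Gimap9 least, over 1.32. The single nearest gene was Saraf for Gimap1, Lfng for Gimap3, Phf11d for Gimap4, Cyth4 for Gimap5, Cytip for Gimap6, Inf2 for Gimap7, Slfn8 for Gimap8 and Usp3 for Gimap9. Lfng, a modifier of the Notch receptor, had 22.4, 9.77, 283 and 56.3 CPM in that order of groups, and its distance to Gimap3 was 0.53.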

How the data were processed

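Polyadenylated RNA of 12 samples was read from 2 deposited tables. The first holds the authors' estimated counts for each gene, and the submitters' processing notes name kallisto 0.46.1, FastQC, DESeq2 and build GRCm38. Of 652212 deposited counts 100% were whole, and rounding was applied anyway. The second holds the authors' deposited log2 values after variance stabilization, used only in an alternative test. The annotation release and any use of strand were not given in the sources used here. Among 54351 genes, 16997 had no count and 20897 were tested with edgeR 4.0.16 in R 4.3.3 (TMM factors, filterByExpr, 4 group means over 12 libraries, 8 residual degrees of freedom, robust quasi-likelihood test). Genes were called at a Benjamini-Hochberg adjusted p below 0.05 over all genes tested. The common biological coefficient of variation was 0.441. Adjusted p-values are from this test unless another tool is named. CPM errors are SDs over 3 libraries, and library totals are given in the report. Floors cover counting error only. Alternatives were other scalings, no filter, DESeq2 1.42.0, limma 3.58.1, fits of 2 groups, replicate blocks and each library left out. The split by ribosomal RNA-like transcripts (at 5% of counts) was added after seeing the data. The scripts were tested on simulated data. Promoter sequences came from RefSeq and gene models from GENCODE M21.

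The members, gene lists and tests were chosen with earlier results of these data known. Named genes were all members, the 5 nearest tested neighbours on each side, the 2 called genes of each list with the largest difference in each comparison, and the 8 nearest profiles with the nearest gene of each member. Of these, the genes that bear on the members are printed. Tested genes inside the cluster and some markers (Klrk1, Eomes, Emcn, Cd1d1, Cd2 and Pecam1) were named in addition, after their values were seen. Proteins were not used here.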

Additional observations from a re-analysis of the deposited data

Results flagged for a closer look

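The gap between LN3 and WT cells differed between the organs for Gimap4 and Gimap5, by a test of the difference itself. For Gimap5 the interaction was −2.42 on the log2 scale (edgeR, adjusted p = 0.00963): the LN3 difference was −1.91 in the spleen, against WT CD8 cells, and 0.51 in the thymus, against WT thymocytes. For Gimap4 it was −2.73 (adjusted p = 0.0234), with −2.28 in the spleen and 0.45 in the thymus. The Gimap5 interaction was called with each of the 12 libraries left out (highest adjusted p = 0.0325), whereas that of Gimap4 was lost in 7 of these fits (highest adjusted p = 0.0698, without LN3 spleen 3). Both calls were lost with limma on the authors' values (adjusted p = 0.0509 for Gimap5 and 0.0638 for Gimap4) and with a replicate block within genotype (0.0831 and 0.161 for these genes). The ribosomal RNA-like share moved with genotype in the spleen, so its part in these values could not be tested there. In the fit with the share as a term, which cannot separate share from genotype in the spleen, 2 members were called. Between LN3 spleen and LN3 thymus Gimap5 had −0.47 and Gimap4 −0.16 (edgeR, adjusted p = 0.79 and 0.949). Between WT CD8 cells and WT thymocytes they had 1.96 and 2.58. The 2 tissues were set against different WT cells, so organ and cell maturity cannot be told apart.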

How the results depend on the processing

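The count of called members in the spleen comparison was 6 to 7 over all alternatives run, and 0 between LN3 spleen and LN3 thymus in all of them. In the thymus it was 2 with library totals as scaling (Gimap1 added, log2 difference −1.02, adjusted p = 0.033), 2 with the ribosomal RNA-like share as a term, and 1 to 2 with each library left out. The interaction count was 0 with limma on the authors' values and 1 to 2 with each library left out. Which members were called also changed. Gimap8, not called in the main fit, was called with DESeq2 (adjusted p = 0.0176) and without the filter (edgeR, adjusted p = 0.0429). It was also called without WT thymocyte 2 or 3 (edgeR, adjusted p = 0.0452 and 0.0244). The titles number the leukaemias alike in both organs, which may mark shared mice, but do not say so. Same-numbered libraries did not all deviate together (correlations of −0.53 to −0.041 between LN3 spleen and LN3 thymus, and up to 0.34 between other groups), so a pairing was not established, nor was it shown to be absent. With a replicate block the interaction count was 1, and with a replicate block within genotype it was 0 and the WT count 3. Signs changed only for members that were not called. Gimap1 between the WT groups had −0.0053 with DESeq2 and −0.22 to 0.37 with libraries left out. Gimap4 between LN3 spleen and LN3 thymus had 0.22 with limma, 0.11 with the replicate block within genotype and −0.55 to 0.53 with libraries left out, where Gimap6 had −0.52 to 0.20, Gimap7 −0.18 to 0.83 and Gimap9 −0.41 to 0.11. Gimap4 in the thymus had −0.12 with the share as a term and −0.23 to 0.89 with libraries left out. Gimap9 had −0.10 in the spleen and −0.14 in the interaction with the share as a term, and −0.12 to 0.44 in the interaction with libraries left out. The cause was not tested. Library totals moved the median of all genes by −0.20 in the thymus and −0.40 in the spleen, and upper-quartile factors by −0.17 and −0.32. Every member was above the floor of 3 counts in every library.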
